A study of Mus musculus with 12 samples.

Results

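The mesothelium is the layer of flat cells that covers the outer surface of the gut, its mesentery and the walls of the body cavities. Its cells give a slippery surface, carry both keratins and mesenchymal proteins, and depend in development on the transcription factor WT1. In a piece of ileum they sit outside the muscle coat, so that their transcripts come from a thin rim of the tissue. The 8 genes described here are markers of these cells: the uroplakin genes Upk3b and Upk1b, Lrrn4, Msln, Wt1, Bnc1, Gpm6a and Muc16. They were taken by symbol, 8 rows of the 45808 in the deposited table, and all 8 were present. They had been selected on their normalized counts in these 12 libraries, by this same contrast of the groups, so their own differences between the groups are given as a description, with no p or call.

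RNA was sequenced from the distal ileum of mice of the inbred strain BALB/c. The groups were mice treated with Porphyromonas gingivalis, an oral bacterium associated with gum disease (6 libraries), and controls that received phosphate-buffered saline, PBS (6 libraries). The sources used here do not give the age of the mice or the dose, route and duration of the treatment, and do not say whether each library came from its own mouse, so p-values measure the spread between these libraries. The libraries are named by group and by the number in their title. They held 6553306 to 9875045 reads after P. gingivalis and 7610970 to 10378841 reads in PBS. Values are normalized counts, that is, gene counts divided by the authors' size factor for the library, with mean ± SD and n = 6 per group. Each difference is the P. gingivalis mean less the PBS mean of log2(normalized count + 1) and has a standard error (SE). In whole tissue, fewer mesothelial cells and less RNA per mesothelial cell cannot be told apart.

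The 300 bases around the annotated start (250 before, 50 after) were in the RefSeq table (GRCm38.p6) for 5 of the 8 genes. Those of Upk3b and Lrrn4, the markers above the filter with the largest differences, and of Bnc1, whose start has another base composition, are shown 5′ to 3′ on the gene's strand. Capitals mark matches, on either strand, to 5 motifs. GNGTGGGNG is a loose form of the element bound by WT1 and EGR proteins. The motif of the TEAD factors was GGAATG and that of the GATA factors was AGATAA. For the SP and KLF factors GGGCGG was used, and for the TATA box TATAAA.
Upk3b, chr5:136038246-136038545, plus strand: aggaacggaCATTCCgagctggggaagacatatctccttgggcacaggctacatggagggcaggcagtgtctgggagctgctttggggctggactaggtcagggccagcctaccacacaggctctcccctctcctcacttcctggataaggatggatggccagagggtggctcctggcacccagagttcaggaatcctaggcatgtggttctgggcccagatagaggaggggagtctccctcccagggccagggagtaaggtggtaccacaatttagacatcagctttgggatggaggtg
Lrrn4, chr2:132880813-132881112, minus strand: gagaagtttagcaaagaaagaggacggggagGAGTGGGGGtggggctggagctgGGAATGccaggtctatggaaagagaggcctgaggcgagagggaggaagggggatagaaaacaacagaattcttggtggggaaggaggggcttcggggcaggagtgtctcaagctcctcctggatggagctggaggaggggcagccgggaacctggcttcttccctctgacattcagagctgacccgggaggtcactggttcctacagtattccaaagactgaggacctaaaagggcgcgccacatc
Bnc1, chr7:81992250-81992549, minus strand: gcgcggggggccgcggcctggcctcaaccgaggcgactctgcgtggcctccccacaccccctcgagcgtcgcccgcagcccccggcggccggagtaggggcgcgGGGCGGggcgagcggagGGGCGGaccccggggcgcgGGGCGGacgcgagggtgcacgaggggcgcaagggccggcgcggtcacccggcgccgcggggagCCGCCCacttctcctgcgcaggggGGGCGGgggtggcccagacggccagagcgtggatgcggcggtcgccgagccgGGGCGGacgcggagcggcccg
The Upk3b window held 1 match, a TEAD motif on the opposite strand starting 241 bases before the start. The Lrrn4 window held a WT1 or EGR match at position -219 and a TEAD match at -196, which do not overlap. The Bnc1 window held 6 SP or KLF matches, was 83.3% G and C and had 50 CpG pairs, against 58.7% and 2 in Upk3b and 58.0% and 7 in Lrrn4. Over all 32851 windows of the table the median G and C content was 52.7%. The WT1 or EGR motif was in 14.3% of all windows, TEAD in 14.7%, GATA in 11.2%, SP or KLF in 35.7% and the TATA box in 13.6%. The other 3 windows of the 6 lay at Gpm6a, which has 2 annotated starts, and at Muc16. One Gpm6a window held a TEAD and an SP or KLF match, the other a TATA box match, and the Muc16 window held none of the 5 motifs. No motif searched was present in all 6 windows. A match here is a run of letters and not a binding site.

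All 8 markers had lower means after P. gingivalis, at between 24.8% and 62.4% of the PBS mean. The median of their 8 log2 differences was -1.35, where the median over all 15025 genes tested was 0.00 and 51.1% of those genes had a negative difference. Together they gave 55 to 150 reads per library after P. gingivalis and 164 to 505 reads in PBS. Their summed normalized count was 69.3 to 137.0 after P. gingivalis and 162.2 to 360.6 in PBS. Of the 8, 5 reached the mean of 10 normalized counts needed for the test over all genes, and Wt1, Bnc1 and Muc16 did not. Lrrn4 averaged under 10 after P. gingivalis and passed through its PBS values. Across the table, limma (adjusted p of 0.05) called 0% of the 15025 genes in either direction, with 560 at an unadjusted p of 0.05. edgeR on the recovered reads also called 0% of 14907 genes, with 542 at that unadjusted p. DESeq2, with 703 at that unadjusted p, called 0.134% of 20877 genes lower.

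**Figure D1:**
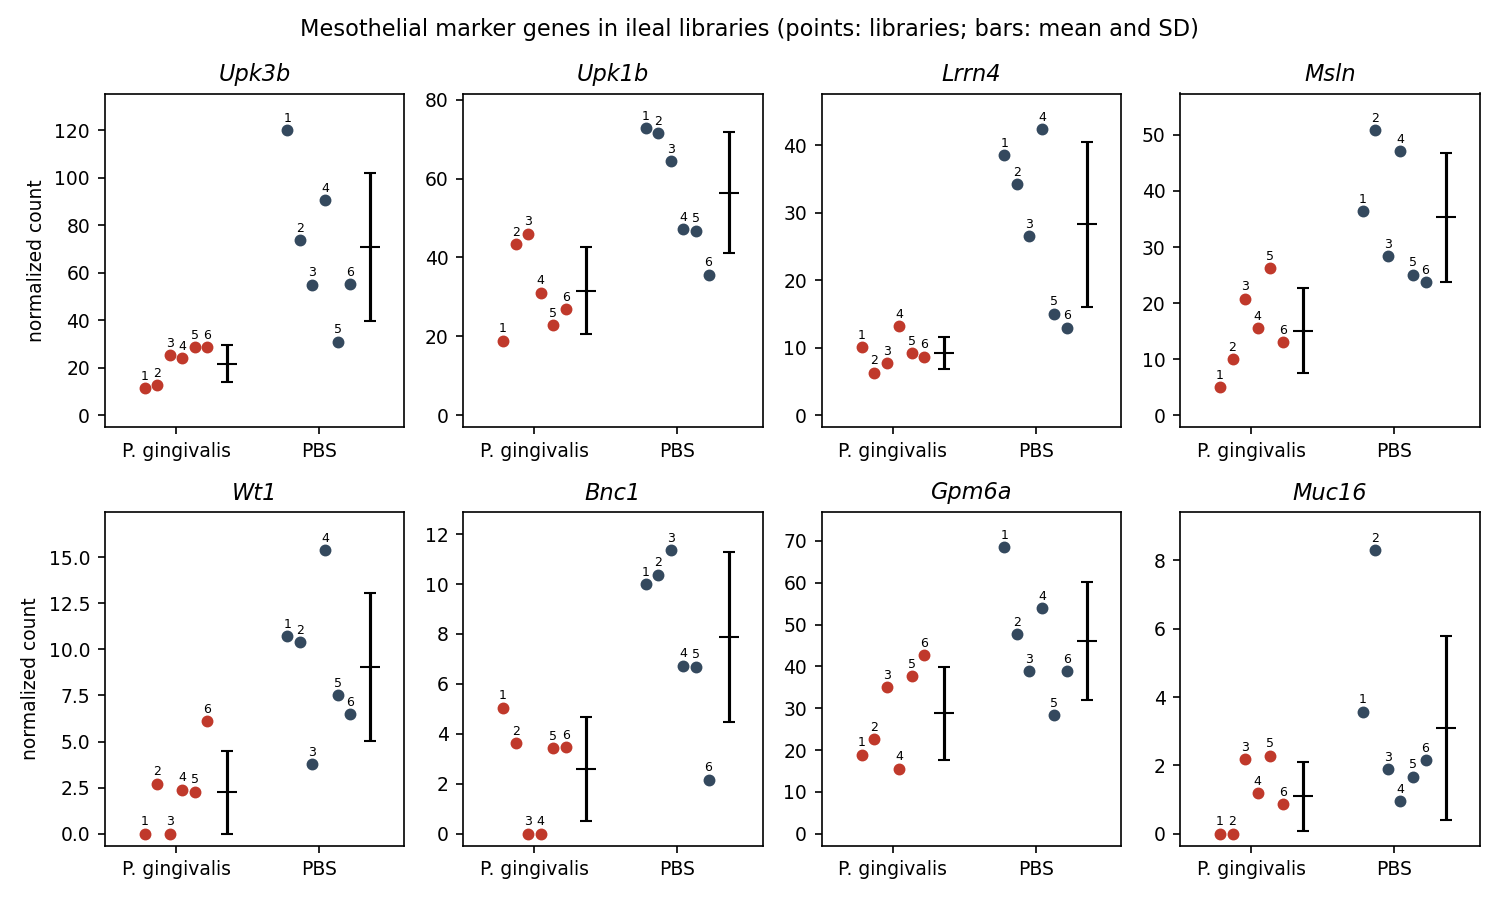
Normalized counts (y axis) of the 8 mesothelial markers in each library, with P. gingivalis at the left and PBS at the right of each panel. Points are libraries with their replicate number, bars are the mean and SD of 6, and the groups are separate for Upk3b and overlap for the other 7 genes.

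The uroplakins are membrane proteins first known from the plaques of the bladder lining. Upk3b encodes uroplakin 3b, which mesothelium also makes (chromosome 5, 136038496 to 136046487, plus strand, GRCm38, GENCODE M21). It stood at 11.3, 12.7, 25.2, 23.9, 28.6 and 28.7 in P. gingivalis replicates 1 to 6, against 120.0, 73.7, 54.9, 90.4, 30.9 and 55.1 in PBS replicates 1 to 6. Every P. gingivalis library lay below every PBS library, with 28.7 and 30.9 the nearest values. Of the 15025 genes tested, 0.0732% were separate in this direction, and Upk3b was the 1 marker of the 8 that was. Its means were 21.7 ± 7.78 after P. gingivalis and 70.8 ± 31.3 in PBS, 3.26-fold lower, a log2 difference of -1.62 (SE 0.32).

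Upk1b encodes the tetraspanin that pairs with a uroplakin 3 protein (chromosome 16, 38773184 to 38800328, minus strand). Its values were 18.9, 43.4, 46.0, 31.1, 22.9 and 26.97 in P. gingivalis replicates 1 to 6, against 72.8, 71.6, 64.4, 47.1, 46.8 and 35.6 in PBS replicates 1 to 6. The groups overlapped, since P. gingivalis replicates 2 and 3 stood above PBS replicate 6. The means were 31.5 ± 11.01 after P. gingivalis and 56.4 ± 15.3 in PBS, a log2 difference of -0.84 (SE 0.24). Upk3b made up 12.5% to 23.3% of the markers' reads in the P. gingivalis libraries and 19.1% to 33.3% in the PBS libraries.

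Msln encodes mesothelin, a protein tethered to the cell surface by a lipid anchor, and Muc16 the large membrane mucin that binds it, known in human serum as CA125. Msln (chromosome 17, 25748613 to 25754378, minus strand) stood at 5.04, 9.94, 20.8, 15.5, 26.3 and 13.0 in P. gingivalis replicates 1 to 6, against 36.4, 50.8, 28.4, 47.1, 25.1 and 23.8 in PBS replicates 1 to 6. P. gingivalis replicate 5 alone reached into the PBS range. The Msln means were 15.1 ± 7.62 after P. gingivalis and 35.3 ± 11.6 in PBS, a log2 difference of -1.27 (SE 0.33). Muc16 (chromosome 9, 18495455 to 18674530, minus strand) gave 6 reads in all P. gingivalis libraries together and 20 in all PBS libraries, 8 of these in PBS replicate 2. It had no reads in P. gingivalis replicates 1 and 2, which allows up to 3 reads in each. Its log2 difference of -0.93 (SE 0.42) rests on those few reads.

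Lrrn4 encodes a membrane protein with leucine-rich repeats (chromosome 2, 132868305 to 132880891, minus strand). It stood at 10.1, 6.33, 7.67, 13.2, 9.14 and 8.70 in P. gingivalis replicates 1 to 6, against 38.6, 34.2, 26.5, 42.3, 15.0 and 13.0 in PBS replicates 1 to 6. The groups met at P. gingivalis replicate 4 and PBS replicate 6, with the first slightly higher. The means were 9.18 ± 2.33 after P. gingivalis and 28.3 ± 12.3 in PBS, a log2 difference of -1.43 (SE 0.30). Gpm6a encodes a membrane glycoprotein of the proteolipid family that neurons also make in quantity (chromosome 8, 54954843 to 55060871, plus strand). Its values were 18.9, 22.6, 35.1, 15.5, 37.7 and 42.6 in P. gingivalis replicates 1 to 6, against 68.5, 47.7, 38.8, 53.9, 28.4 and 38.9 in PBS replicates 1 to 6. P. gingivalis replicates 3, 5 and 6 lay within the PBS range. Its means were 28.7 ± 11.2 after P. gingivalis and 46.0 ± 14.0 in PBS, a log2 difference of -0.70 (SE 0.27), the smallest of the 8. GENCODE places 5 short gene models inside Gpm6a on its own strand, so some of its reads could belong to them.

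The transcription factor genes were weakly counted. Wt1, a zinc finger factor of the mesothelial lineage (chromosome 2, 105126529 to 105173616, plus strand), had 0, 2.71, 0, 2.39, 2.29 and 6.09 normalized counts in P. gingivalis replicates 1 to 6, against 10.7, 10.4, 3.79, 15.4, 7.52 and 6.48 in PBS replicates 1 to 6. P. gingivalis replicate 6 stood above PBS replicate 3, and the other 5 P. gingivalis libraries lay below every PBS library. The P. gingivalis libraries held 14 Wt1 reads in all and the PBS libraries 60, for a log2 difference of -1.86 (SE 0.49). Bnc1, basonuclin 1, a zinc finger protein also found in keratinocytes and germ cells (chromosome 7, 81966672 to 81992292, minus strand), had 5.04, 3.62, 0, 0, 3.43 and 3.48 in P. gingivalis replicates 1 to 6, against 9.996, 10.4, 11.4, 6.73, 6.69 and 2.16 in PBS replicates 1 to 6. PBS replicate 6 lay within the P. gingivalis values and the other 5 PBS libraries above them. The log2 difference of Bnc1 was -1.51 (SE 0.52), from 15 reads after P. gingivalis and 53 in PBS. A library with no read allows up to 3 reads, so neither gene could be detected in those libraries at this depth.

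Levels can be set side by side once divided by the length of the annotated exons (normalized counts per kilobase). After P. gingivalis the order was Upk1b (15.1 ± 5.27), Gpm6a (8.94 ± 3.47), Upk3b (6.16 ± 2.20), Msln (4.93 ± 2.49), Lrrn4 (2.47 ± 0.628), Bnc1 (0.558 ± 0.451), Wt1 (0.363 ± 0.362) and Muc16 (0.0414 ± 0.0383). In PBS it was Upk1b (26.995 ± 7.34), Upk3b (20.1 ± 8.87), Gpm6a (14.3 ± 4.36), Msln (11.5 ± 3.77), Lrrn4 (7.61 ± 3.30), Bnc1 (1.70 ± 0.735), Wt1 (1.46 ± 0.651) and Muc16 (0.117 ± 0.102). The SD ranges of neighbours from Upk1b down to Lrrn4 overlapped in both groups, as did those of Bnc1 and Wt1. Those of Lrrn4 and Bnc1 did not overlap in either. The place of Upk3b and Gpm6a in this order differed between the groups, within that spread.

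The spread of most markers between libraries was wider than counting alone gives. In PBS the coefficient of variation of Upk3b was 44.2%, where its read numbers alone would give 11.2%, and that of Lrrn4 was 43.4% against 17.8%. After P. gingivalis that of Msln was 50.4% against 26.6%. The exceptions were Lrrn4 after P. gingivalis, at 25.4% against 34.3%, and Muc16 after P. gingivalis, at 92.4% against 100%.

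**Figure D2:**
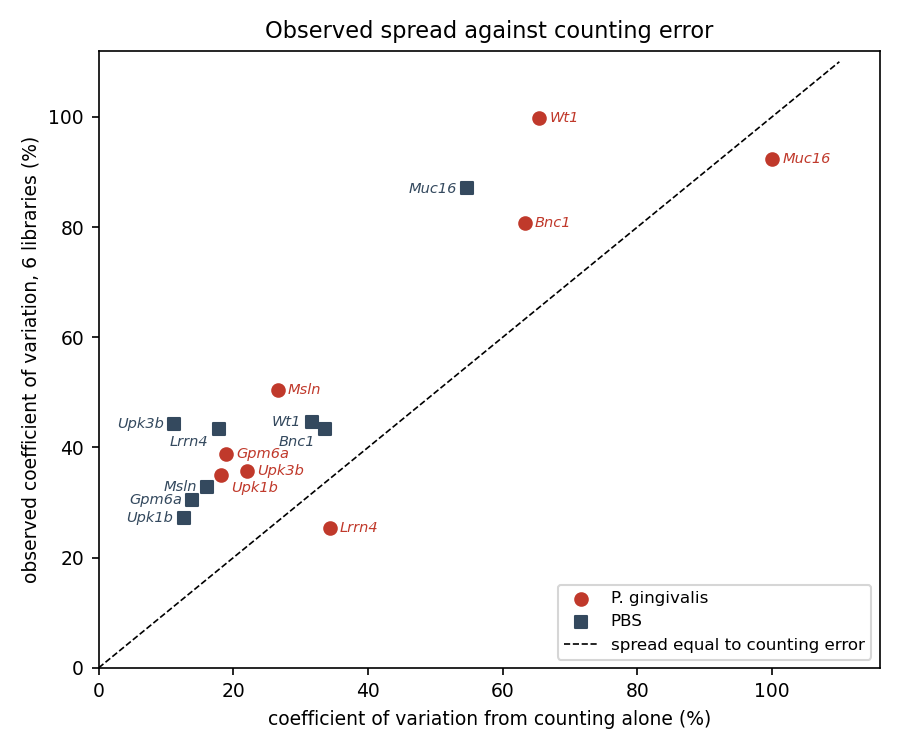
Observed coefficient of variation over 6 libraries (y axis, percent) against that expected from the mean number of reads alone (x axis, percent) for the 8 markers, with circles for P. gingivalis and squares for PBS. Points above the dashed line vary more than counting gives; Lrrn4 and Muc16 after P. gingivalis lie below it.

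Inside the groups every pair of markers tested had a positive r, but most pairs did not pass. Deviations from the group mean were compared over the 12 libraries for the 10 pairs of the 5 genes above the filter, with 100000 permutations of the libraries within their groups, two-sided and adjusted over the 10 pairs. Of these 5, Lrrn4 passed the filter through its PBS values and had 7 to 11 reads in each P. gingivalis library. Upk3b and Gpm6a deviated together (Pearson r = 0.78, permutation p = 0.00485, adjusted p = 0.0263; Spearman rho = 0.83, permutation p = 0.00136, adjusted p = 0.0136). Without the 2 libraries farthest from the median of Upk3b their r was 0.66. For Upk3b and Msln r was 0.74 (permutation p = 0.00526, adjusted p = 0.0263), with rho = 0.64 (permutation p = 0.0318, adjusted p = 0.159) and r = 0.62 without the 2 farthest libraries. The other 8 pairs did not pass, with r from 0.23 to 0.62 and adjusted permutation p from 0.154 to 0.489. Not passing over 12 libraries does not show that a pair moved apart. Pairs of other genes were not compared in this way, so the share of them with a positive r or passing is not known. The counts for the marker pairs therefore do not show that these genes go together more than other genes do. The 4 pairs that hold Upk1b had r from 0.23 to 0.39. Among the PBS libraries, replicates 5 and 6 were at the low end, with summed normalized counts of 162.2 and 177.1 against 230.1 to 360.6 in the other 4. Among the P. gingivalis libraries, replicate 1 was lowest at 69.3, against 101.2 to 137.0 in the other 5.

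By the same measure, the 10 genes whose deviations were most like the mean of the 5 markers were 4833420G17Rik (r = 0.92), Ccdc14 (r = 0.89), Pnrc2 (r = 0.88), Nap1l4 (r = 0.88), Mapkapk3 (r = 0.87), Srl (r = 0.86), Vezt (r = 0.86), Qpct (r = 0.83), Hdac6 (r = 0.83) and Xrn2 (r = 0.83). They are the top of 11218 genes with a mean of at least 50, of which 18 had an r over 0.8, and are given as a ranking over 12 libraries with no test. Of these 10, 6 were also in the top 10 by Spearman's rho.

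The other genes known from mesothelium were taken from a list of 30, of which 25 passed the filter. limma called 0 of the 25 higher and 0 lower, where it called 0% of all genes tested. Of the 25, 24 had negative differences, and their median was -0.30. Ildr2 and Nkain4, counted among these, averaged under 10 after P. gingivalis and passed the filter through their PBS values. The 8 most abundant were mostly genes that other cells of the gut wall make as well. C3, the complement component, averaged 556.9 ± 327 after P. gingivalis and 853 ± 216 in PBS, a log2 difference of -0.79 (SE 0.34). Rarres2, the precursor of chemerin, differed by -0.38 (SE 0.15), Cpe, carboxypeptidase E, by -0.43 (SE 0.22), and Efemp1, a fibulin of the matrix, by -0.30 (SE 0.19). Igfbp5, which binds insulin-like growth factors, differed by -0.18 (SE 0.21), Thbd, thrombomodulin, by -0.07 (SE 0.19), Aldh1a2, which makes retinoic acid, by -0.11 (SE 0.13) and the keratin gene Krt7 by -0.06 (SE 0.12). The adjusted p of these 8 was 0.992 to 0.994 in limma.

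The 5 most negative differences of that list were those of Ildr2, Igfbp6, Pkhd1l1, Slpi and Nkain4, picked for their size after the values were seen. The other 20 genes ran from -0.79 (C3) to 0.26 (Myrf), with Lrrn4cl at -0.68 and Bnc2 at -0.55. Igfbp6, another binding protein of insulin-like growth factors, stood at 13.9, 19.0, 26.3, 19.1, 22.9 and 63.5 in P. gingivalis replicates 1 to 6, against 99.96, 90.3, 59.6, 128.9, 34.3 and 36.7 in PBS replicates 1 to 6. P. gingivalis replicate 6 lay within the PBS range and the other 5 below it. The difference of Igfbp6 was -1.43 (SE 0.38, limma adjusted p = 0.521). Pkhd1l1, a large membrane protein related to fibrocystin, averaged 22.02 ± 9.74 after P. gingivalis and 58.0 ± 20.4 in PBS, a difference of -1.39 (SE 0.31, limma adjusted p = 0.267). Ildr2 differed by -1.51 (SE 0.44), Slpi, a protease inhibitor, by -1.16 (SE 0.32) and Nkain4, a partner of the sodium pump, by -1.02 (SE 0.38), with limma adjusted p from 0.586 to 0.992. Ildr2 and Nkain4 averaged 9.62 and 6.65 after P. gingivalis and were tested only through their PBS values. Calb2 (calretinin), Pdpn (podoplanin) and Cdh2 (N-cadherin), used as mesothelial stains but shared with neurons, lymphatic vessels or muscle, differed by -0.14 (SE 0.23), -0.25 (SE 0.22) and -0.01 (SE 0.31). Without P. gingivalis replicate 6, limma called Igfbp6 and Pkhd1l1 of this list, with 0.347% of 14981 genes called lower. DESeq2 called Pkhd1l1 of this list with all libraries.

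**Figure D3:**
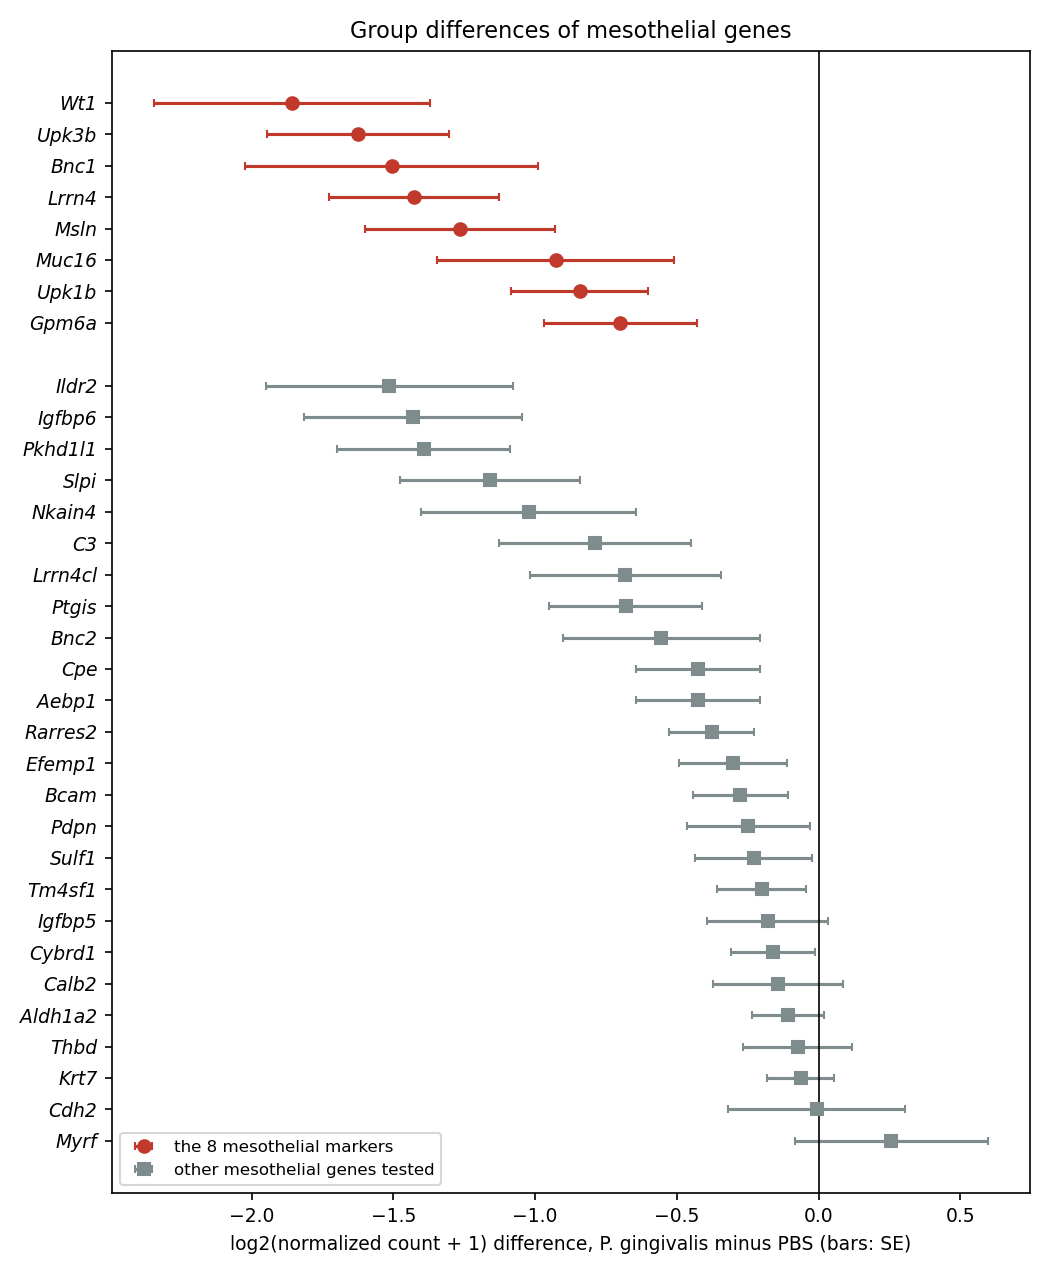
Group differences on the log2(normalized count + 1) scale, P. gingivalis minus PBS (x axis), with SE bars, for the 8 markers (circles) and the 25 other mesothelial genes tested (squares). The markers run from -1.86 to -0.70 and the others from -1.51 to 0.26.

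The deviations inside the groups were also read for this list. Over its 25 genes the median r with the mean of the markers was 0.38, with Igfbp6 at 0.80 and Myrf at -0.59 at the ends. It was -0.01 over the 11218 genes with a mean of at least 50, 0.46 over the 12 smooth muscle genes and 0.38 over the 12 fat cell genes. These values describe 12 libraries, and no difference between lists was tested.

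Several markers also occur outside mesothelium, so defining genes of those tissues were read. In urothelium, Upk2, Krt5 and Psca had no reads in any library, which allows up to 3 reads in each. The 6 urothelial genes summed to 4.57 to 19.0 after P. gingivalis and 7.14 to 23.1 in PBS, and none passed the filter. Upk1a, the bladder partner of Upk2, averaged 5.72 ± 3.27 after P. gingivalis and 6.34 ± 3.78 in PBS. Upk3a averaged 4.58 ± 2.33 after P. gingivalis and 8.27 ± 3.42 in PBS. Of the 10 enteric neuron and glia genes tested, which matter for Gpm6a, 0 were called, where 0% of all genes tested were called. A count of 0 therefore does not show that the genes of a tissue were unchanged. The median difference of these 10 genes was -0.08 (range -0.43 to 0.07). The 4 most abundant, Ret, Prph, Snap25 and Uchl1, differed by 0.07 (SE 0.14), -0.06 (SE 0.19), -0.10 (SE 0.20) and -0.27 (SE 0.19). Their 12 genes summed to 286.5 to 691.5 after P. gingivalis and 363.9 to 482.7 in PBS. Gpm6b, the paralogue of Gpm6a, averaged 90.6 ± 31.6 after P. gingivalis and 81.3 ± 14.6 in PBS. Among the membrane mucins of the epithelium, Muc13 differed by 0.21 (SE 0.14), Muc3 by 0.48 (SE 0.25) and Muc4 by 0.73 (SE 0.33), and none was called (limma adjusted p = 0.992). Of 5 genes of the female reproductive tract lining, Emx2 had no reads, and Pax8 and Esr1 differed by -0.23 (SE 0.21) and -0.18 (SE 0.20). Pgr and Ovgp1, below the filter, averaged 6.82 ± 4.02 and 5.75 ± 3.14 after P. gingivalis and 9.06 ± 4.87 and 4.53 ± 2.25 in PBS.

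Genes of neighbouring tissues of the gut wall also had lower means, and their part in the marker values was not tested. All 12 fat cell genes had negative differences (median -3.59), and summed to 1202 to 5684 after P. gingivalis and 3863 to 15097 in PBS. limma called 0 of the 12, where it called 0% of all genes tested. Lep and Retn averaged 8.21 and 8.47 after P. gingivalis and passed the filter through their PBS values. The 4 most abundant were Car3, carbonic anhydrase 3 (-6.03, SE 1.40), Fabp4, a fatty acid carrier (-2.68, SE 0.54), and the lipases Lipe (-0.31, SE 0.23) and Lpl (-3.12, SE 0.68). In P. gingivalis replicates 1, 2 and 3, not 1 read was counted for 5 of these 12 genes, namely Lep, Cfd, Retn, Plin1 and Adipoq. Upk3b was 11.3, 12.7 and 25.2 in these libraries and 23.9, 28.6 and 28.7 in the other 3. The mean log2 value of the fat cell genes was also read per library, less the PBS mean. It was -4.76, -4.98, -5.04, -1.56, -3.31 and -0.60 in P. gingivalis replicates 1 to 6. For the 8 markers it was -1.80, -1.38, -1.33, -1.35, -0.86 and -0.90 in the same order. Replicate 5 was thus low in fat cell genes and had the marker mean nearest to PBS. Leaving out P. gingivalis replicates 1, 2 and 3 gave a median marker difference of -1.06. Upk3b then differed by -1.24, Lrrn4 by -1.26, Msln by -0.91, Gpm6a by -0.58, Wt1 by -1.12 and Muc16 by -0.58, each nearer to 0 than with all libraries. Upk1b at -1.002 and Bnc1 at -1.59 were farther from 0.

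The smooth muscle and matrix genes set P. gingivalis replicate 6 apart. All 12 smooth muscle genes had negative differences (median -0.52), with 0 called, where 0% of all genes tested were called. The 12 included Myh11 (-0.40, SE 0.28), Mylk (-0.27, SE 0.17), Acta2 (-0.51, SE 0.26) and Myl9 (-0.52, SE 0.24). Of the 11 fibroblast and matrix genes tested, 9 were negative (median -0.20) and 0 were called. The collagen genes Col3a1, Col1a2 and Col6a1 and the proteoglycan gene Dcn, the most abundant, differed by -0.21 (SE 0.17), -0.12 (SE 0.18), 0.03 (SE 0.17) and -0.37 (SE 0.22). In P. gingivalis replicate 6 the smooth muscle genes summed to 40328, above the 19725 to 32001 of the PBS libraries, and the matrix genes to 20701, above the PBS range of 13067 to 17882. In the same library Upk3b (28.7), Lrrn4 (8.70), Upk1b (26.97) and Msln (13.0) lay below every PBS library, while Gpm6a, Wt1 and Bnc1 lay within the PBS range and Muc16 had 1 read. In P. gingivalis replicates 1, 2, 3 and 5 the smooth muscle list mean, less the PBS mean, was -1.03 to -0.65 log2 units. The marker list mean, less the PBS mean, was -1.80 to -0.86 log2 units in the same 4 libraries. In P. gingivalis replicate 4 the smooth muscle list mean was -0.19 and the marker list mean -1.35.

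**Figure D4:**
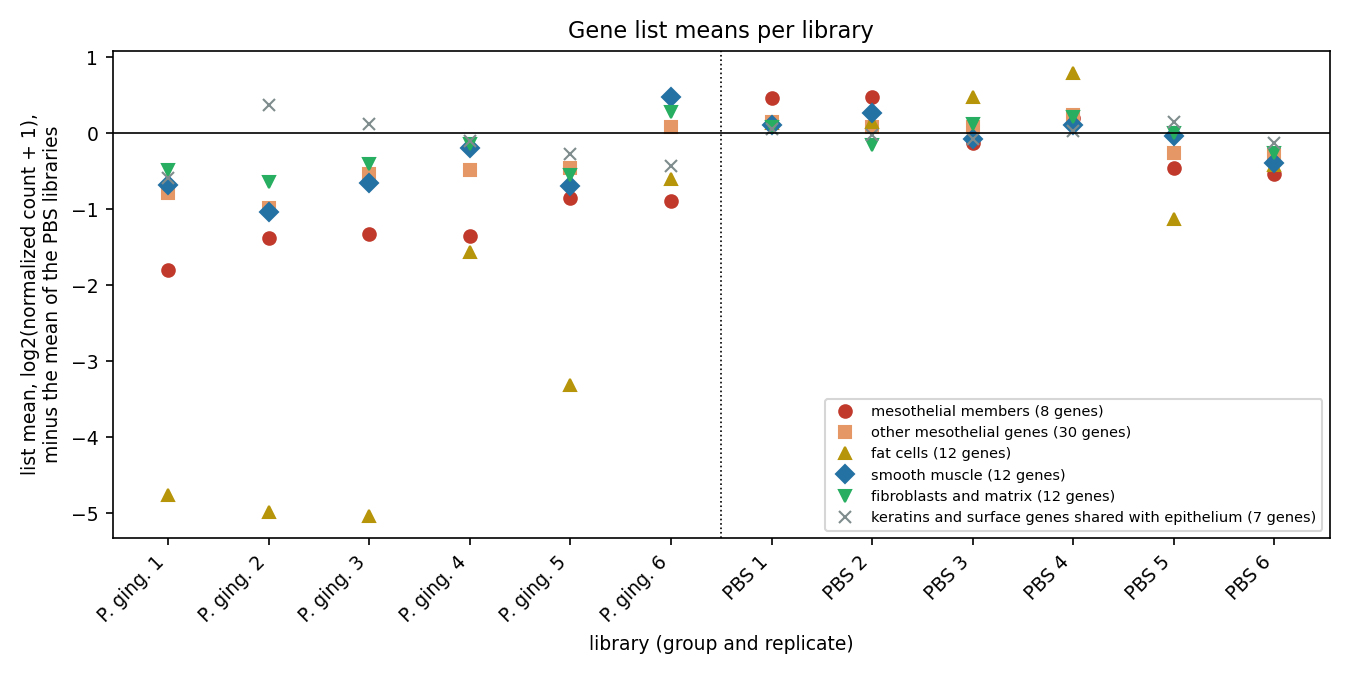
Mean of each gene list on the log2(normalized count + 1) scale in each library (x axis), less the mean of the PBS libraries (y axis, log2 units), with the 6 P. gingivalis libraries at the left. The 8 markers lie from -1.80 to -0.86 after P. gingivalis and from -0.54 to 0.47 in PBS, and in P. gingivalis replicate 6 they lie at -0.90 with smooth muscle at 0.48.

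Keratins and surface genes that mesothelium shares with the far more abundant epithelium were read as well. Krt8 averaged 23096 ± 7066 after P. gingivalis and 25192 ± 3456 in PBS, a log2 difference of -0.18 (SE 0.24). Krt19, Epcam and Ezr (ezrin) differed by -0.17 (SE 0.19), -0.21 (SE 0.20) and -0.27 (SE 0.22). Of the 7 genes 0 were called, and the counts of 0 given here stand beside 0% of all genes tested. Of the blood and lymphatic vessel genes 0 of 10 were called (median 0.08), with Kdr at 0.15 (SE 0.19), Pecam1 at 0.12 (SE 0.19), Vwf at -0.23 (SE 0.25) and Flt4 at 0.24 (SE 0.16). The macrophage genes of the serosal cavities had a median of 0.01 over the 5 tested, and 0 were called. Of these Cxcl13, F5, Timd4 and Alox15 differed by 0.12 (SE 0.40), 0.01 (SE 0.47), 0.45 (SE 0.27) and -0.37 (SE 0.35). Of the pancreatic enzyme genes Cela1, the 1 tested, differed by -0.20 (SE 0.18), Amy2b had no reads, and Cpa1, Cela2a and Prss2 had reads in 1 library each. Of the 5 liver genes 2 were tested. Serpina1a, Fgb and Ahsg, too low for the test, gave 8, 2 and 5 reads after P. gingivalis and 16, 17 and 20 in PBS. Ttr, transthyretin, the more abundant of the 2 tested, averaged 29.5 ± 9.26 after P. gingivalis and 28.8 ± 6.97 in PBS, a log2 difference of 0.00 (SE 0.23). Alb, albumin, averaged 5.54 ± 7.97 after P. gingivalis and 24.4 ± 8.66 in PBS (-2.45, SE 0.50, limma adjusted p = 0.240). Alb passed the filter through its PBS values. Without P. gingivalis replicate 2 limma called 1 gene over all genes tested, and this was Alb. That omission removed the highest Alb value of its group, 21.7, while the remaining 5 libraries of that group had 0.870 to 3.78.

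Genes of the intestinal lining set 3 libraries apart. Fabp6, an ileal bile acid binding protein, stood at 2.52 and 16.0 in P. gingivalis replicates 1 and 5, against 4.32 in PBS replicate 6, and at 11246 or more in the other 9 libraries. In P. gingivalis replicates 1 and 5 and PBS replicate 6, Lct stood at 18205, 27629 and 22535 and Fabp1 at 26745, 21996 and 16938. These were the highest values of both genes. Slc10a2 was lowest in the same libraries, at 23.9, 57.2 and 90.7. P. gingivalis replicate 6 lay at the other end, with the lowest Lct (0.870) and Fabp1 (18.3) and the highest Slc10a2 (4007). Between the groups Lct, Fabp1 and Slc10a2 differed by -0.61 (SE 1.92), 0.31 (SE 1.52) and -1.09 (SE 1.27), and none was called (0% of all genes tested). Without the 3 libraries low in Fabp6 the median marker difference was -1.43 and Upk3b differed by -1.59.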

How the data were processed

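RNA was measured in 12 ileal libraries, grouped by the treatment in the labels. The deposited table holds a normalized signal: the authors divided the counts of each library by a size factor, as the file's name and values show. FastQC, HISAT2, Cufflinks, DESeq2 and the build GRCm38 (mm10) are named in the submitters' processing notes; the sources used here state no counter, annotation or strand setting. Dividing a library by its smallest step turned 100% of its values into whole reads (tolerance 0.001 reads).

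limma 3.58.1 (R 4.3.3, mean-variance trend) was fitted to log2(normalized count + 1) over the 15025 genes with a mean of at least 10, two-sided, with Benjamini-Hochberg adjustment at 0.05. It was tested on simulated data with changes placed only in genes with a mean of at least 50. The highest mean of a marker was 46.3 (Upk3b), so the simulation does not cover the markers. SE values of Wt1, Bnc1 and Muc16, which lay below the mean of 10, come from a fit over all genes with a read. edgeR 4.0.16 and DESeq2 1.42.0 were run on the recovered reads. The pseudocount of 1 understates changes of low genes. Floors of 3 reads and spreads from counting cover counting error only. Positions and exon lengths (annotated exons merged) are from GENCODE M21.

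Markers and gene lists were chosen with earlier results of these data known. Named genes are the 8 markers, the most abundant genes of each list (8 of the other mesothelial genes, up to 4 of the rest, of which those too low for the test are named in part), any that passed, and the 10 most like the markers. Other genes named were chosen after their values were seen. Alternatives were other pseudocounts, filters, scalings and tools, sample weights, a replicate block and leaving libraries out. The joint omission of P. gingivalis replicates 1, 2 and 3 was chosen after seeing the data.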

Additional observations from a re-analysis of the deposited data

Results flagged for a closer look

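Of 50 sets of 6 values examined, 7 held a library that stood well outside its own group. About 1 in 20 would by chance if the sets were independent and their values normally distributed. These sets share libraries and hold normalized counts that were not logged, so the 7 cannot be read against that rate. Of the markers, Muc16 was such a case: PBS replicate 2 had 8.30, a matter of a few reads, while the remaining PBS libraries had 0.962 to 3.57. P. gingivalis replicate 6 gave 4 of the 7. Igfbp6 was 63.5 there (13.9 to 26.3 in the rest of its group), and Thbd 449.7 (177.2 to 264.7). In the same library Rarres2 was 549.7 (320.0 to 398.9 in the rest), and Efemp1 273.1 (113.2 to 173.1). Aldh1a2 gave a case in each group. It was 263.4 in P. gingivalis replicate 1, with 143.7 to 178.3 in the rest of that group, and 214.8 in PBS replicate 2, with 179.7 to 192.2 in the rest of that one.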

How the results depend on the processing

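The 8 markers kept a negative difference under every alternative run. Their median, -1.35, was -0.86 with a pseudocount of 5, -1.39 with 0.5, -1.37 with trimmed-mean and -1.34 with upper-quartile scaling, and -1.52 in edgeR and -1.56 in DESeq2. Leaving out 1 library gave -1.49 to -1.23. Wt1, Bnc1 and Muc16 moved most, to -0.96, -0.76 and -0.37 with a pseudocount of 5. limma called 0 genes, and 0 of the other mesothelial genes and of the lists of other tissues. It called 1 gene with a pseudocount of 5 and 1 without PBS replicate 6 and P. gingivalis replicates 1 and 5. Sample weights gave 20 genes, 4 of them in the lists of other tissues. DESeq2 called 31, with 1 other mesothelial gene and 1 of another tissue. Leaving out 1 library gave 0 to 53 genes, 0 to 2 other mesothelial genes and 0 to 9 of other tissues, the highest each time without P. gingivalis replicate 6, while 7 genes were called without PBS replicate 5. The cause was not tested. Of the 10 genes most like the markers, 6 stayed among the 10 by Spearman's rho and 6 without P. gingivalis replicate 6. The titles number both groups 1 to 6, and same-numbered libraries did not deviate together (r from -0.54 to 0.08 across genes, which are not independent). These values cannot decide whether the numbers pair the libraries, since other differences between libraries also enter them. With the number as a replicate block limma called 0 genes and the median was -1.35. Read numbers limit Wt1, Bnc1 and Muc16, which had at most 16 reads in a library.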

Other observations

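A few genes of the lists that were too weakly counted for the test also had lower values after P. gingivalis, and are given as values, chosen after they were seen. Pi16, a marker of fibroblasts of the outer coats of organs and vessels, averaged 5.12 ± 1.93 after P. gingivalis and 13.5 ± 4.74 in PBS, with 8.37 the highest P. gingivalis and 8.64 the lowest PBS library. Upk3bl, a relative of Upk3b, gave 6 reads in the P. gingivalis libraries together and 23 in the PBS libraries. Trp63, the squamous epithelial factor p63, gave 1 read after P. gingivalis and 11 in PBS. Rspo1, an R-spondin made by mesothelium, averaged 6.47 ± 3.07 after P. gingivalis and 12.1 ± 4.69 in PBS, and P. gingivalis replicates 3 and 5 lay within the PBS range.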
